A study of Mus musculus with 44 samples.

Results

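Adenosine, muscarinic, cannabinoid and orphan G protein-coupled receptors of striatal neurons were examined in mouse nucleus accumbens in which a virus carried RXRa, the nuclear receptor known in full as retinoid X receptor alpha. The genes were chosen by name: Adora1, Adora2a, Gpr6, Gpr52, Chrm1, Chrm4 and Cnr1, 7 genes of the 55487 in the count tables. Symbols were matched to rows through GENCODE M21, and 6 of the 7 were found. Gpr52 was not analysed here.

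The bulk samples were nucleus accumbens tissue from male mice that received a herpes simplex virus vector, HSV-GFP in 4 libraries and HSV-RXRa-GFP in 4. The sorted samples were D1 or D2 nuclei from mice that received AAV9-CAG-DIO-EGFP or AAV9-CAG-DIO-EGFP-P2A-RXRa. AAV9 is an adeno-associated virus serotype, CAG is a promoter active in many cell types, and DIO marks an insert that Cre recombinase must turn into the reading orientation. D1 and D2 are the usual names for projection neurons that carry the dopamine receptor gene Drd1 or Drd2. Under EGFP there were 5 D1 female, 5 D1 male, 4 D2 female and 5 D2 male libraries, and each of the 4 matching RXRa groups had 4. Strain, age, the interval after infusion, the source of Cre and whether animals were pooled are not given in the sources used here. Nothing in those sources ties each library to its own animal, so p-values measure the spread between libraries, which may be technical. Replicate numbers below are those of the titles.

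Adora1 and Adora2a encode the adenosine A1 and A2a receptors, which lower and raise cAMP through inhibitory and stimulatory G proteins. Gpr6 is an orphan receptor with constitutive coupling to cAMP production. Chrm1 encodes the muscarinic M1 receptor, which couples to Gq, and Chrm4 the M4 receptor, which couples to Gi. Cnr1 encodes the CB1 cannabinoid receptor, which acts largely on axon terminals to limit transmitter release. In textbook accounts of the striatum, the A2a receptor and Gpr6 belong to D2 neurons and M4 is richest in D1 neurons. M1 is present in both kinds of projection neuron.

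The 250 bases before the RefSeq transcription start (GRCm38.p6) are shown for the 4 genes with an entry, because Gpr6 and Chrm4 lay on opposite sides of the D1 and D2 comparison while Adora1 and Cnr1 did not separate these populations. For Adora1 and Cnr1, which have several starts, the first listed start is printed. The windows are Gpr6 at chr10:41072291-41072540 on the minus strand, Chrm4 at chr2:91921939-91922188 on the plus strand, Adora1 at chr1:134235458-134235707 on the minus strand and Cnr1 at chr4:33924014-33924263 on the plus strand. Capitals mark matches on either strand to AGGTCA (a half-site that RXR and its partners can bind), TGACGTCA (the cAMP response element) or GGGCGG (the GC box).
Gpr6: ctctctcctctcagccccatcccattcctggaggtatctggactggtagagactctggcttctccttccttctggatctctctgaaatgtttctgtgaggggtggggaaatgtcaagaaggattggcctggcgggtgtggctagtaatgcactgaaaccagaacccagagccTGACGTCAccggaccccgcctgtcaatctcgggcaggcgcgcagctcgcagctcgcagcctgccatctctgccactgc
Chrm4: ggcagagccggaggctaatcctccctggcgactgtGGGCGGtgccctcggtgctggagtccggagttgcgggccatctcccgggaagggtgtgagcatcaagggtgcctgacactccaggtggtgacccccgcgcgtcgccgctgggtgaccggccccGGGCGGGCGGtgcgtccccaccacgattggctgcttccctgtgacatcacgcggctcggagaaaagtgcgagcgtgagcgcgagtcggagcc
Adora1: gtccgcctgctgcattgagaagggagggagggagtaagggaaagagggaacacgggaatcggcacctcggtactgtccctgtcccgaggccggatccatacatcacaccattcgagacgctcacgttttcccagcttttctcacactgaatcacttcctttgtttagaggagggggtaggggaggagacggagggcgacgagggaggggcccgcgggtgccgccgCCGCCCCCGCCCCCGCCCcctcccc
Cnr1: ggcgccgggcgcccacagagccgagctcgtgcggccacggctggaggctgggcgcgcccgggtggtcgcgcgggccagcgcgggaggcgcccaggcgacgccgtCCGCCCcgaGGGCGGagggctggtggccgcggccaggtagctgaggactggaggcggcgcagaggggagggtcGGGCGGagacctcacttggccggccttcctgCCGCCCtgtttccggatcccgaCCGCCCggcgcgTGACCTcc

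Gpr6 held 1 cAMP response element and no other match. In the printed windows Adora1 held 3 GC boxes and Chrm4 also 3, of which a pair overlapped. The printed Cnr1 window held 5 GC boxes and 1 AGGTCA match, read here on the opposite strand. Start 2 of Adora1 and starts 2 and 3 of Cnr1, which are not printed, held 0 matches to any of these motifs. Over all 32851 windows of this length in the table, 14.0% held AGGTCA, 1.55% held TGACGTCA and 32.7% held GGGCGG. The GC content of the printed windows was 58.4% for Gpr6, 70.0% for Chrm4, 64.4% for Adora1 and 79.2% for Cnr1, against a median of 52.4%. It was 65.2% for start 2 of Adora1, and 68.8% and 49.2% for starts 2 and 3 of Cnr1. These matches describe letters only and say nothing of binding.

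The GRCm38 gene models differ in ways that bear on the counts. Adora1 (ENSMUSG00000042429) spans chr1:134199223-134235431, of which 84.0% is intron, and its 3′ end overlaps Mybph on the opposite strand, so its reads are uncertain there. Adora2a (ENSMUSG00000020178) spans chr10:75316877-75334784 with 82.9% intron. Gpr6 (ENSMUSG00000046922) covers chr10:41069977-41072285 with 22.7% intron and no other gene on it. Chrm1 (ENSMUSG00000032773) spans chr19:8663789-8683587 with 67.2% intron and overlaps the small RNA gene Gm22820. Chrm4 (ENSMUSG00000040495) is a single exon at chr2:91927249-91928688, a model of coding length with no UTR. Cnr1 (ENSMUSG00000044288) spans chr4:33924593-33948831 with 73.4% intron.

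The 8 bulk libraries held 21567565 to 29167142 counts each, and the 35 sorted libraries with a group held 12211655 to 27757463. Sorted libraries carried reads over whole gene bodies. This was read from 1576 protein-coding genes with bodies of at least 5 kb and 0 counts in all bulk libraries. Across them the mean level followed gene-body length (Spearman's rho 0.797 across genes) and not exon length (0.0672). The median level of these genes, here called silent-gene density, was 0.380 to 0.565 CPM per kb among sorted libraries, CPM being counts scaled to a library of 1000000. Multiplied by a gene's length it gives the level that such a uniform background would produce. For Gpr6 and Chrm4, with gene bodies of 2.309 and 1.44 kb, this extrapolates below the lengths the density was set on. Group means of the density were 0.504 to 0.532 in the 4 EGFP groups and 0.444 to 0.498 in the 4 RXRa groups. As a check of the sort, Drd2 was 49.0 to 71.2 CPM in D1 EGFP libraries and 520 to 929 in D2 EGFP libraries, and Drd1 was 30.7 to 77.3 in D1 and 6.50 to 16.6 in D2. Penk (23.3 to 129 CPM in D1 and 189 to 698 in D2) and Pdyn (23.12 to 49.95 and 9.204 to 11.96) also did not overlap under EGFP. Tac1 did overlap, at 21.7 to 58.4 CPM in D1 and 12.01 to 29.3 in D2. Its D2 minus D1 difference was -0.72 (SE 0.23, adjusted p = 0.261, edgeR's quasi-likelihood test). Isl1, Sp9 and Grik3 overlapped as well. Of the D1 markers, Ebf1 and Eya1 were near their background in both populations.

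In bulk tissue, where levels can be set against each other per kb of exon, Adora2a was the most abundant of the 6. In the 4 HSV-GFP libraries the mean level was 129 ± 8.49 CPM per exon kb for Adora2a (SD, n = 4), 60.1 ± 6.87 for Gpr6 and 43.1 ± 5.03 for Chrm4. The short Chrm4 model has no UTR, and how that moves its value was not tested. Chrm1 had 28.5 ± 1.30, Adora1 28.4 ± 4.15 and Cnr1 12.3 ± 5.29. The ranges of Adora2a, Gpr6 and Chrm4 did not overlap one another, and those of Chrm1 and Adora1 did. In sorted nuclei the order depended on the measure. In D1 nuclei under EGFP the ratio of a gene's level to its length-matched background, which favours genes with few introns, was led by Chrm4, with group means of 10.1 in females and 9.97 in males. Chrm1 followed at 4.32 and 4.09, then Gpr6 at 3.09 and 3.99 and Cnr1 at 2.58 and 2.69. Adora1 (1.89 and 1.78) and Adora2a (1.75 and 1.92) were lowest. Neighbours in this order overlapped. By the same ratio in D2 nuclei under EGFP, Gpr6, also a short gene, led at 17.0 in both sexes and Adora2a came next at 5.69 and 6.67, below each Gpr6 value in females and overlapping in males. Chrm1 (4.51 and 4.72), Chrm4 (3.38 and 4.85), Cnr1 (2.31 and 2.97) and Adora1 (1.76 and 1.86) followed, each overlapping its neighbour. Per kb of exon, with background included, Chrm1 led in D1 nuclei (6.59 CPM in females and 6.39 in males) and Chrm4 had 5.02 and 5.04. On that scale Adora2a led in D2 nuclei (17.7 and 20.6), ahead of Gpr6 (11.7 and 11.6).

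**Figure D1:**
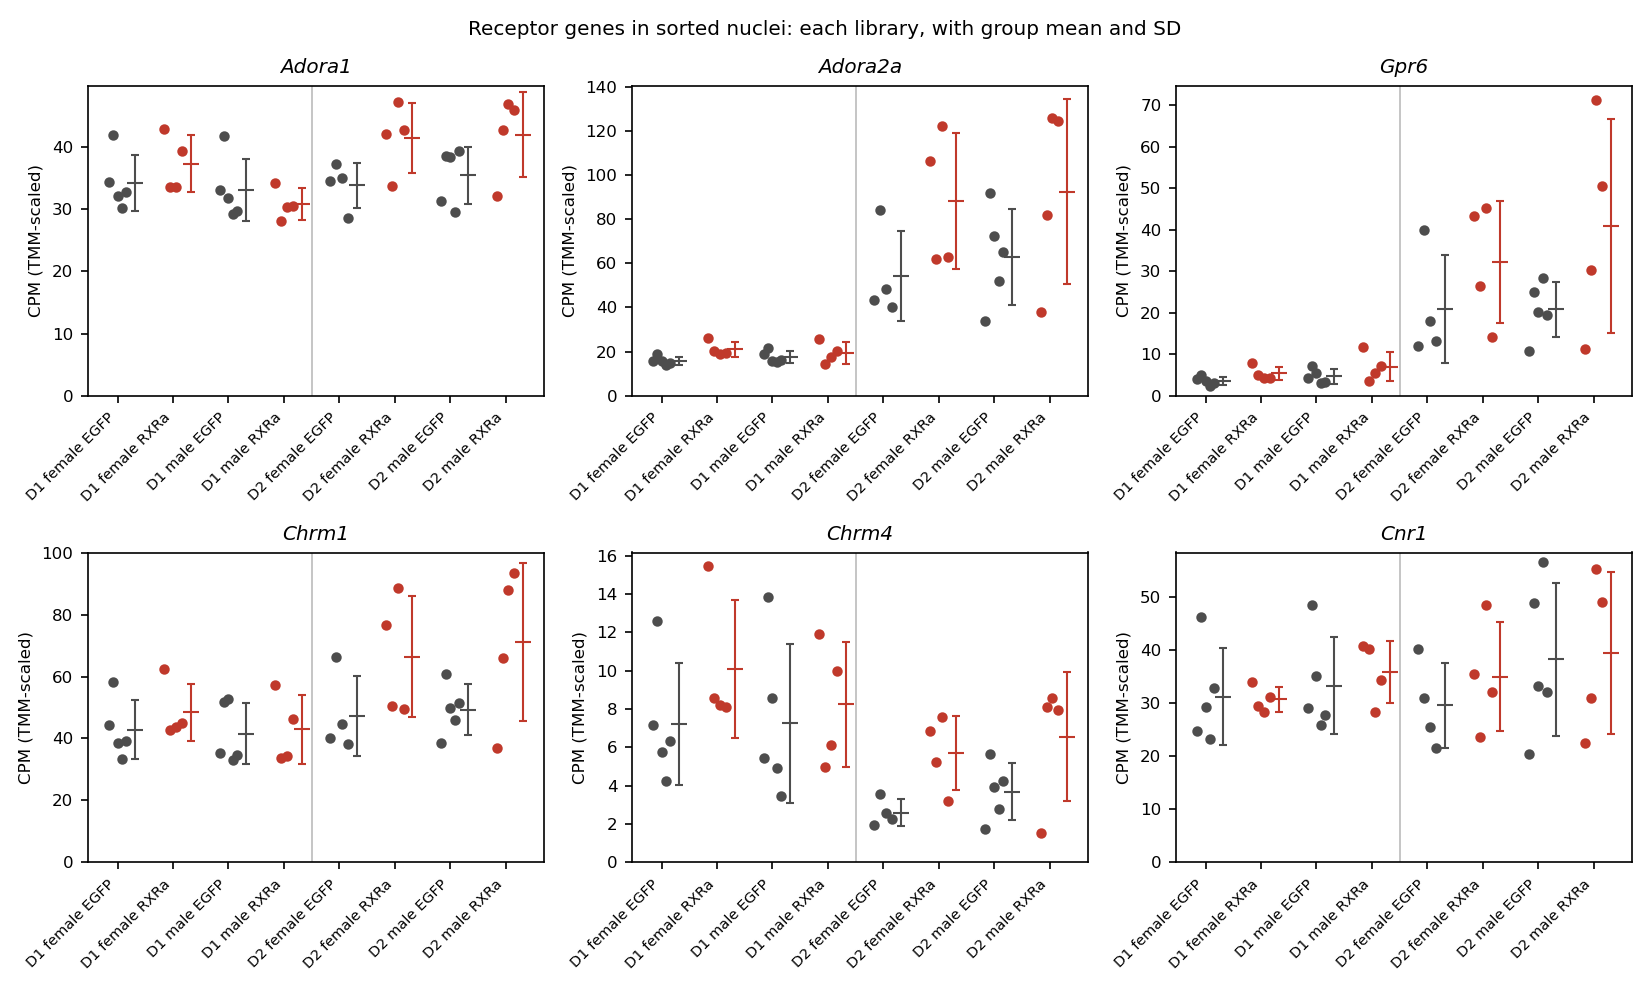
Level of the 6 receptor genes in each sorted library (vertical axis, TMM-scaled CPM from 0) by population, sex and vector (horizontal axis; EGFP grey, RXRa red), with the group mean and SD at the right of each group. Adora2a separates D2 from D1 libraries without overlap, from 13.9 to 26.0 CPM in D1 and from 33.8 to 126 CPM in D2, while Adora1, Chrm1 and Cnr1 overlap.

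The question of which receptors mark a population was asked first under EGFP. Adora2a and Gpr6 were higher in D2 than in D1 nuclei, 3.51-fold and 5.16-fold, and no other member passed the test. Chrm4 was the 1 member with a higher estimate in D1, and its difference missed the threshold. Adora1, Chrm1 and Cnr1 differed by less than the spread between libraries.

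Adora2a in D1 EGFP libraries was 15.7, 18.7, 15.7, 13.9 and 14.7 CPM in females (replicates 1 to 5) and 19.1, 21.7, 15.7, 15.4 and 16.1 in males. In D2 EGFP libraries it was 43.4, 84.3, 48.6 and 40.2 in females (replicates 1, 3, 4 and 5) and 33.8, 91.8, 72.5, 51.8 and 65.0 in males (1 to 5). Each D2 library was above each D1 library, and the D2 libraries differed among themselves by more than 2-fold. The D2 minus D1 difference was 1.81 on the log2 scale (SE 0.19, adjusted p = 1.30e-07, edgeR's quasi-likelihood test with Benjamini-Hochberg adjustment over 43902 genes, as for all adjusted p-values of sorted nuclei below). Within females it was 1.78 (SE 0.27, adjusted p = 5.81e-04) and within males 1.85 (SE 0.26, adjusted p = 1.60e-04). The fold understates the contrast above background, because the length-matched background of Adora2a had group means of 9.03 to 9.54 CPM under EGFP and each D1 EGFP library lay at most 13.0 CPM above it.

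Gpr6 in D1 EGFP libraries was 3.97, 4.88, 3.54, 2.39 and 3.01 CPM in females and 4.38, 7.28, 5.46, 3.01 and 3.28 in males. In D2 EGFP libraries it was 12.01, 40.0, 18.0 and 13.2 in females and 10.8, 25.0, 20.2, 28.4 and 19.6 in males. The populations did not overlap, and replicate 3 of the D2 females stood above its group. The difference was 2.37 (SE 0.29, adjusted p = 6.48e-06), with 2.54 (SE 0.42, adjusted p = 0.00229) in females and 2.20 (SE 0.41, adjusted p = 0.0135) in males. The extrapolated background of this short gene had group means of 1.16 to 1.23 CPM under EGFP, and each D1 EGFP library lay above it. In those libraries Penk, a D2 marker, was 23.3 to 129 CPM against a background median of 2.705. The part of D2 RNA in the D1 values of Gpr6 was not tested.

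Chrm4 in D1 EGFP libraries was 7.18, 12.6, 5.76, 4.26 and 6.31 CPM in females and 5.46, 13.9, 8.58, 4.90 and 3.47 in males. In D2 EGFP libraries it was 1.95, 3.55, 2.58 and 2.28 in females and 1.74, 5.66, 3.94, 2.77 and 4.25 in males. The female groups did not overlap and the male groups did. The D2 minus D1 difference was -1.21 (SE 0.29, unadjusted p = 2.18e-04, adjusted p = 0.115, edgeR's quasi-likelihood test), with a 95% interval from -1.79 to -0.64. It passed under 4 of the 11 other settings for the fit, with adjusted p from 0.0356 to 0.198 over them and from 0.0605 to 0.256 over the fits that left out 1 library.

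For the other members the D2 minus D1 interval under EGFP was -0.12 to 0.21 for Adora1, -0.10 to 0.50 for Chrm1 and -0.28 to 0.41 for Cnr1. Over both populations under EGFP, Adora1 ranged from 28.7 to 41.9 CPM, Chrm1 from 33.1 to 66.4 and Cnr1 from 20.4 to 56.6. Of all 43902 genes tested, 0.0478% were called higher and 0.0729% lower in D2, against 2 of 6 members higher and 0 lower. In females these background shares were 0.0273% and 0.0228%, and in males 0.0273% and 0.0478%, with the same 2 members called in each sex. Adora2a and Gpr6 are known D2 genes, and earlier results of these data were known when the members were listed. In the male comparison Gpr6 was not called (adjusted p 0.0507 to 0.0766) with limma's voom, with a robust fit, or without replicate 4 or 5 of the D1 males or 2 or 4 of the D2 males. In the female comparison it was not called without replicate 3 of the D2 females (adjusted p = 0.0662, edgeR).

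The ratio of 2 receptor counts within a library needs no scaling between libraries, and Chrm1, which is present in both populations, served as the denominator. That choice was made after seeing the data, so the permutation p-values of all ratios are descriptive. The Adora2a to Chrm1 count ratio had a median of 0.412 in the 10 D1 EGFP libraries (0.296 to 0.542) and 1.13 in the 9 D2 EGFP libraries (0.878 to 1.51). For Gpr6 to Chrm1 the medians were 0.0914 (0.0718 to 0.141) and 0.404 (0.281 to 0.618). For Chrm4 to Chrm1 they were 0.158 (0.100 to 0.268) in D1 and 0.0594 (0.0451 to 0.0928) in D2, and here the populations did not overlap. The differences in mean log2 ratio, sexes weighted equally, were 1.55, 2.08 and -1.37. For each, the two-sided exact permutation p within sexes was 3.15e-05, the smallest its 31752 arrangements allow (adjusted p = 2.10e-04 over the 20 ratio comparisons made). Relative to Chrm1, Chrm4 thus did not overlap between the populations, while its CPM overlapped in males. The adjusted p-values of the ratio and of the CPM cannot be compared, being taken over 20 ratios and over 43902 genes. Adora1 to Chrm1 (-0.16, exact permutation p = 0.10, adjusted p = 0.223) and Cnr1 to Chrm1 (-0.16, exact permutation p = 0.323, adjusted p = 0.404) did not differ beyond the spread between libraries. Counts of Chrm1 include a background of 9.98 to 10.5 CPM (group means) under EGFP, so the ratios are of total counts and not of transcripts.

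**Figure D2:**
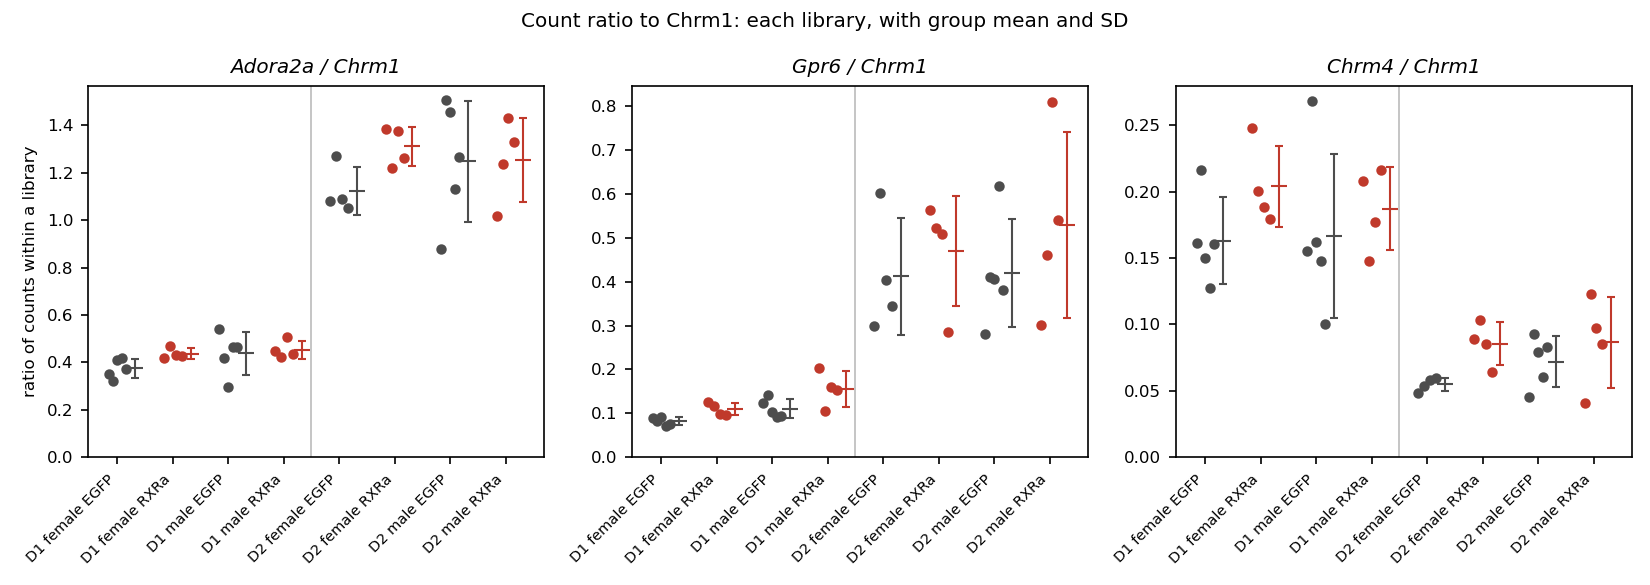
Count ratio of Adora2a, Gpr6 and Chrm4 to Chrm1 within each sorted library (vertical axis, from 0) by population, sex and vector (horizontal axis; EGFP grey, RXRa red), with group mean and SD. Under EGFP the D1 and D2 libraries do not overlap in any of the 3 ratios, the first 2 being higher in D2 and Chrm4 to Chrm1 higher in D1.

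Across the 35 sorted libraries, the genes whose log2 level followed each member most closely were named from 15317 protein-coding genes with a mean of at least 5 CPM. For Adora2a they were Gpr6 (Pearson's r 0.973), Penk (0.966) and B3gat1 (0.956). For Gpr6 they were Penk (0.988), Adora2a (0.973) and the transcription factor gene Sp9 (0.945). For Chrm4 they were Tac1 (0.935), Slc35d3 (0.884) and Drd1 (0.882). Penk and Tac1 encode the precursors of enkephalin and substance P, the classical peptides of D2 and D1 neurons. Chrm1 was closest to Cx3cl1 (0.979), Arf3 (0.978) and Nsg1 (0.978), and Adora1 to Fbf1 (0.942), Map3k10 (0.941) and Tmem38a (0.932). Cnr1 had the loosest neighbours, Serpine2 (0.815), Nexn (0.812) and Rgs4 (0.811). These values describe libraries that fall into D1 and D2 sets and share depth and background, and no test was made. Within the 17 D2 libraries, Chrm1 also moved with Adora2a (r 0.975), Gpr6 (0.934) and Chrm4 (0.920), and within the 18 D1 libraries with Chrm4 (0.935).

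RXRa delivery was then compared with EGFP within each population. In D2 nuclei, 5 of the 6 receptors were called higher with RXRa when both sexes were fitted: Adora1, Adora2a, Gpr6, Chrm1 and Chrm4, by 1.20-fold to 1.97-fold. Cnr1 was not called. Of all genes tested, 14.9% were called higher and 7.14% lower, so the call itself was common in these libraries. None of the 5 calls was made once silent-gene density entered the fit as a covariate.

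Adora2a in D2 RXRa libraries was 106, 61.8, 122 and 62.6 CPM in females (replicates 2 to 5) and 37.7, 81.9, 126 and 124 in males (replicates 1, 2, 3 and 5). Set against the D2 EGFP values above, 4 of the 8 were higher than each EGFP library, and replicate 1 of the males was among the lowest. The difference was 0.63 (SE 0.19, adjusted p = 0.0219). Gpr6 was 43.3, 26.5, 45.1 and 14.1 in females and 11.2, 30.4, 71.2 and 50.6 in males, a difference of 0.80 (SE 0.28, adjusted p = 0.0375).

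Chrm1 showed the same libraries high and low. It was 40.1, 66.4, 44.7 and 38.3 CPM in D2 EGFP females and 38.6, 61.0, 49.7, 45.8 and 51.3 in D2 EGFP males. With RXRa it was 76.7, 50.6, 88.8 and 49.6 in females and 37.1, 66.2, 88.0 and 93.6 in males, a difference of 0.51 (SE 0.16, adjusted p = 0.0273). Chrm4 had the largest estimate of the 6: it was 6.85, 5.22, 7.58 and 3.20 in females and 1.51, 8.11, 8.60 and 7.95 in males with RXRa. The difference was 0.98 (SE 0.32, adjusted p = 0.0279), 1.97-fold. Adora1 had the smallest called difference, 0.27 (SE 0.09, adjusted p = 0.0299), from a range of 28.7 to 39.3 under EGFP to 32.1 to 47.3 with RXRa. Cnr1 ranged from 20.4 to 56.6 and from 22.5 to 55.4, with a difference of 0.14 (SE 0.19, adjusted p = 0.608) and an interval from -0.22 to 0.51.

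These calls rested on a few libraries. No member was called without replicate 4 of the D2 RXRa females, without replicate 3 or 5 of the D2 RXRa males, or without replicate 5 of the D2 EGFP females. Without replicate 1 of the D2 EGFP males 1 was called, without replicate 1 of the D2 EGFP females 2, and without replicate 2 of the D2 RXRa females 3. Scaling by library totals alone, which moved the median of all genes to -0.20 from -0.04, left 1 member called and turned Cnr1 to -0.05. Within each sex 0 members were called by edgeR, DESeq2 or voom, and 0% of all genes by edgeR (DESeq2 called 12 genes in D2 males). In D2 females the 6 estimates ran from 0.24 to 1.15, 4 with an unadjusted p under 0.05, beside 11080 of all 43902 genes. In D2 males they ran from 0.04 to 0.97, 3 with an unadjusted p under 0.05, beside 8656 of all genes. Without replicate 3 of the RXRa females 2 members were called in females, and without replicate 1 of the RXRa males 5 in males.

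The silent-gene density moved with these values. It was 0.532 ± 0.0242 (SD, n = 4) in D2 EGFP females and 0.463 ± 0.0653 (n = 4) with RXRa, and 0.529 ± 0.0284 (n = 5) and 0.458 ± 0.0506 (n = 4) in males. Over the 17 D2 libraries its correlation with log2 levels was -0.81 for Adora1, -0.67 for Chrm1, -0.60 for Adora2a, -0.59 for Chrm4, -0.44 for Gpr6 and -0.38 for Cnr1, as a description. With the density as a covariate the RXRa estimates were 0.04 for Adora1, 0.27 for Adora2a, 0.43 for Gpr6, 0.13 for Chrm1, 0.36 for Chrm4 and -0.16 for Cnr1 (adjusted p 0.915 to 0.960 with edgeR's quasi-likelihood test). The D2 markers other than the members, Drd2, Penk, Sp9 and Grik3, summed to 914 to 1535 CPM in D2 EGFP libraries and 1050 to 2834 with RXRa, and 3 of these 4 were called higher. Of the 6 D1 markers, Drd1 (0.89, SE 0.25, adjusted p = 0.0173) and Tac1 (0.74, SE 0.24, adjusted p = 0.0287) were called higher beside Chrm4, Ebf1 and Eya1 were called lower, and Pdyn and Isl1 were not called. Their sum was 350 to 417 CPM under EGFP and 332 to 436 with RXRa, carried largely by Ebf1 and Eya1. In D2 EGFP libraries those genes had medians of 245.8 and 88.29 CPM against background medians of 207.9 and 75.15. From EGFP to RXRa the Drd1 median went from 13.86 to 25.22 CPM and that of Tac1 from 21.07 to 36.2. The Pdyn median went from 10.06 to 13.16 and that of Isl1 from 7.423 to 6.715. The part that the density or either marker set plays in the receptor values was not tested.

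**Figure D3:**
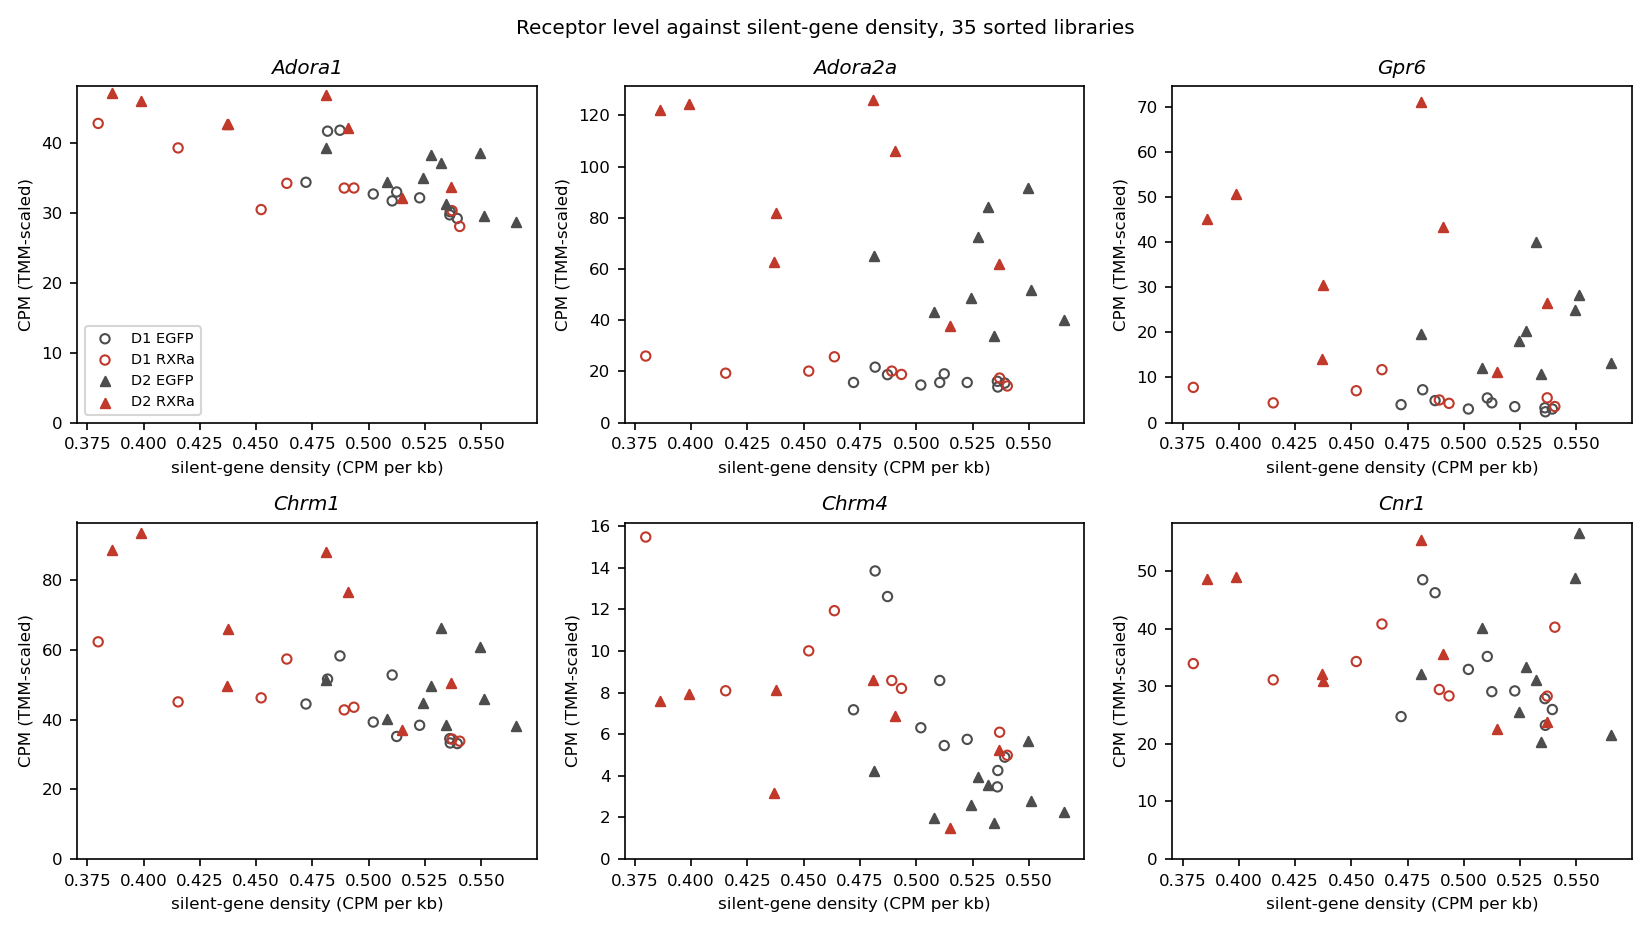
Level of each receptor gene (vertical axis, TMM-scaled CPM from 0) against silent-gene density (horizontal axis, CPM per kb of gene body, not from 0) in the 35 sorted libraries; open circles are D1, filled triangles D2, grey EGFP and red RXRa. RXRa libraries reach lower densities, down to 0.380, and Adora1 falls along the density axis in both populations (r -0.74 in D1 and -0.81 in D2).

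In D1 nuclei, 0 of 6 members were called with RXRa, beside 0% of all genes, and 0 members had an unadjusted p under 0.05 in edgeR's quasi-likelihood test. DESeq2 and limma's voom also called 0 members. The 6 estimates were 0.01 for Adora1, 0.28 for Adora2a, 0.59 for Gpr6, 0.12 for Chrm1, 0.35 for Chrm4 and 0.05 for Cnr1. The interval of Gpr6 ran from -0.03 to 1.21, and those of Adora1 and Cnr1 from -0.16 to 0.18 and from -0.30 to 0.40. With RXRa, Gpr6 was 7.81, 5.01, 4.26 and 4.37 CPM in D1 females (replicates 1, 2, 4 and 5) and 11.7, 3.56, 5.49 and 7.06 in D1 males (1, 2, 3 and 5), overlapping the EGFP values given above. In D1 females and D1 males taken alone 0% of genes and 0 members were called, and 0 members had an unadjusted p under 0.05. DESeq2 and voom called 0 members there, and DESeq2 called 4 other genes in D1 females.

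The effect of RXRa was compared directly between the populations as an interaction. It was called for 0% of genes and for 0 of 6 members by edgeR, by DESeq2 and by voom. All 6 estimates were larger in D2, by 0.10 (Cnr1) to 0.63 (Chrm4) on the log2 scale, with standard errors of 0.12 to 0.43. The smallest unadjusted p was 0.0436 for Adora1 (adjusted p = 0.601 with edgeR), the 1 member under 0.05, beside 3609 of all 43902 genes. A D2 effect that passed and a D1 effect that did not are therefore not shown to differ.

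Relative to Chrm1, a denominator chosen after seeing the data, no receptor passed the test with RXRa in D2 nuclei. Chrm1 was itself called higher there (0.51, SE 0.16, adjusted p = 0.0273 with edgeR), so a rise shared with Chrm1 cannot show in these ratios. The mean log2 ratio changed by 0.12 for Adora2a (exact permutation p = 0.236), 0.24 for Gpr6 (exact permutation p = 0.289), 0.41 for Chrm4 (exact permutation p = 0.0657), -0.20 for Adora1 (exact permutation p = 0.143) and -0.33 for Cnr1 (exact permutation p = 0.0837). The adjusted p-values over the 20 ratio comparisons were 0.219 to 0.386. In D1 nuclei the Gpr6 to Chrm1 ratio was 1.35-fold higher with RXRa, from a median of 0.0914 (0.0718 to 0.141) to 0.121 (0.0969 to 0.204), with a two-sided exact permutation p of 0.00309 (adjusted p = 0.0154). The groups overlapped, and leaving out each library in turn gave log2 differences of 0.36 to 0.52. The other 4 ratios in D1 had adjusted p-values of 0.223 to 0.700 by the same exact permutation test. Penk, the D2 peptide gene closest to Gpr6, was 23.3 to 129 CPM in D1 EGFP and 52.5 to 212 in D1 RXRa libraries (log2 difference 0.73, SE 0.33, adjusted p = 0.595), and the 4 D2 markers other than the members summed to 245 to 398 and 277 to 487 CPM. The part of D2 RNA in the D1 ratio was not tested.

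Under RXRa, D2 exceeded D1 nuclei for 4 of the 6 members, where 6.85% of all genes were called higher and 1.51% lower. Adora2a differed by 2.16 (SE 0.21, adjusted p = 1.69e-08), 4.48-fold, and Gpr6 by 2.58 (SE 0.31, adjusted p = 3.08e-06), 5.99-fold. Chrm1 (0.59, SE 0.17, adjusted p = 0.0344) and Adora1 (0.30, SE 0.09, adjusted p = 0.0392) were called too. Chrm4 had an estimate of -0.59 (SE 0.29, adjusted p = 0.186) and Cnr1 0.16 (SE 0.19, adjusted p = 0.637). Only Adora2a and Gpr6 were called with library totals, voom or the RXRa libraries fitted alone. The same held without any 1 of 10 of the 16 libraries: replicates 2, 4 and 5 of the D1 females, 2, 3 and 5 of the D1 males, 2 and 4 of the D2 females, or 3 and 5 of the D2 males. This comparison shares its libraries with the RXRa against EGFP comparisons and is no separate evidence for them.

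**Figure D4:**
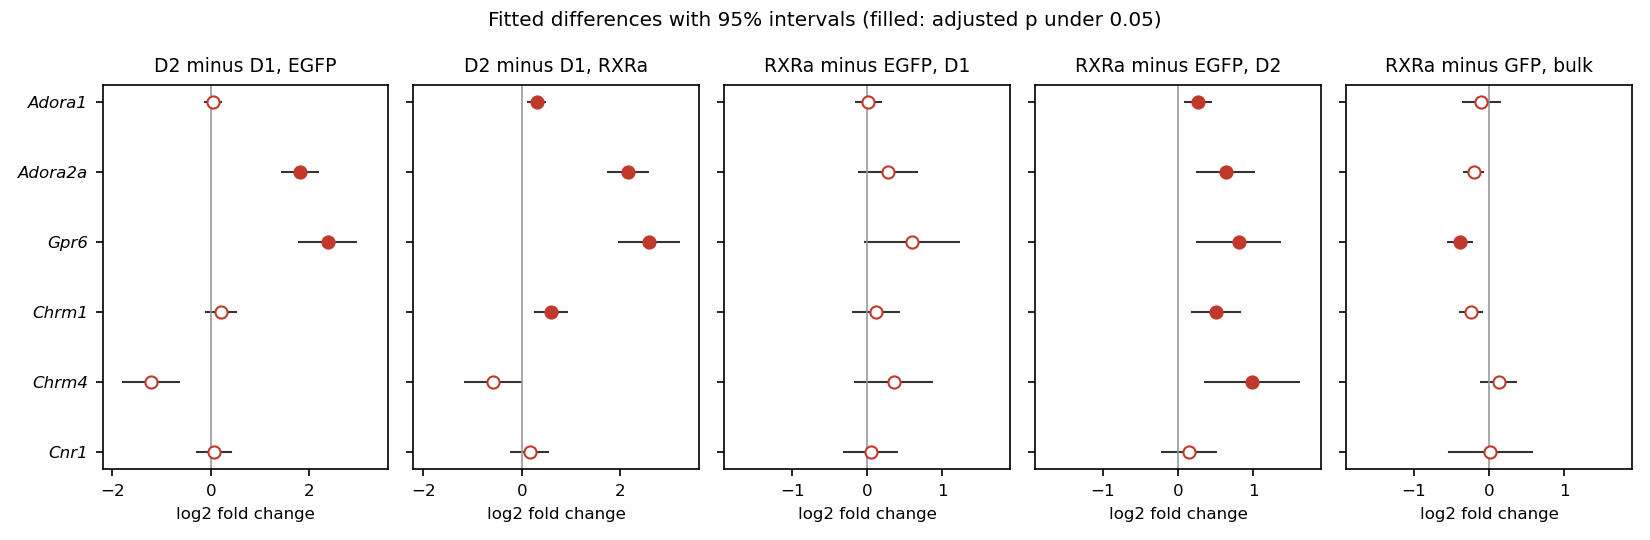
Fitted log2 fold change (horizontal axis) of each receptor gene (vertical axis) with its 95% interval in 5 comparisons; filled points have an adjusted p under 0.05. Adora2a and Gpr6 lie far to the right in both D2 minus D1 panels, with estimates from 1.81 to 2.58, while the RXRa effects lie between -0.39 and 0.98.

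In bulk tissue, 1 of the 6 members was called with RXRa: Gpr6 was lower. The background over 18579 genes was 3.01% called higher and 0.689% lower. Gpr6 was 95.2, 109, 101 and 124 CPM in the HSV-GFP libraries (replicates 1 to 4) and 88.1, 83.4, 77.6 and 79.4 with HSV-RXRa-GFP. Each RXRa library was below each GFP library, but the share of all genes that separate in this way was not counted. Gpr6 fell by 0.39 on the log2 scale (SE 0.08, adjusted p = 0.0385, edgeR's quasi-likelihood test), a fold of 0.766. In bulk tissue, fewer cells of a type and less RNA per cell cannot be told apart. The call was lost without replicate 2, 3 or 4 of either group (adjusted p up to 0.118), with the estimate between -0.44 and -0.31 over all 8 such fits.

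Adora2a and Chrm1 were lower without passing the test. In edgeR's quasi-likelihood test 3 of the 6 members had an unadjusted p under 0.05, beside 3990 of all 18579 genes. How many of all genes lacked overlap between the groups was not counted. Adora2a was 387, 410, 364 and 424 CPM with GFP and 361, 358, 337 and 316 with RXRa, without overlap, a difference of -0.21 (SE 0.07, adjusted p = 0.119). Chrm1 was 187, 177, 180 and 196 with GFP and 169, 170, 147 and 140 with RXRa, again without overlap, at -0.24 (SE 0.07, adjusted p = 0.106). Adora1 (-0.11, SE 0.13, adjusted p = 0.672), Chrm4 (0.13, SE 0.12, adjusted p = 0.583) and Cnr1 (0.02, SE 0.28, adjusted p = 0.983) overlapped between groups. Cnr1 had the widest spread, with replicate 3 at 130 CPM against 54.5 to 66.2 in the other GFP libraries. The direction for Adora2a, Gpr6 and Chrm1 was lower in bulk and higher in D2 nuclei, but the vectors, the RNA selection and the tissue differ, and the tables were scaled separately.

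Within bulk libraries the ratio to Chrm1 changed by 0.04 for Adora2a (exact permutation p = 0.486), -0.14 for Gpr6 (exact permutation p = 0.20) and 0.36 for Chrm4 (exact permutation p = 0.0286, adjusted p = 0.114). With 4 against 4 libraries there are 70 arrangements, and each has a mirror image with a difference of the same size. The exact permutation p of 0.0286 is therefore the smallest two-sided p possible here before adjustment. The Chrm4 to Chrm1 ratio was 0.298 to 0.369 with GFP and 0.384 to 0.496 with RXRa, without overlap. The 4 D2 markers other than the members summed to 1389 to 1562 CPM with GFP and 1249 to 1400 with RXRa, and 0 of the 4 were called. Markers of T and NK cells rose in all 5 genes of their list, from sums of 9.34 to 12.6 CPM to 19.7 to 52.4. The oligodendrocyte sum was 4275 to 4812 and 2586 to 4471, and a glutamatergic sum ran from 7.29 to 689 with GFP and from 67.9 to 508 with RXRa, with 0 of 5 genes called by edgeR in either list. Of 4 endothelial markers Kdr rose (0.71, SE 0.14, adjusted p = 0.0284), with sums of 159 to 221 CPM with GFP and 211 to 236 with RXRa. Of 5 astrocyte markers Aqp4 rose (0.57, SE 0.13, adjusted p = 0.0478), with sums of 1812 to 2333 and 1906 to 2773. What these cells contribute to the receptor values was not tested.

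**Figure D5:**
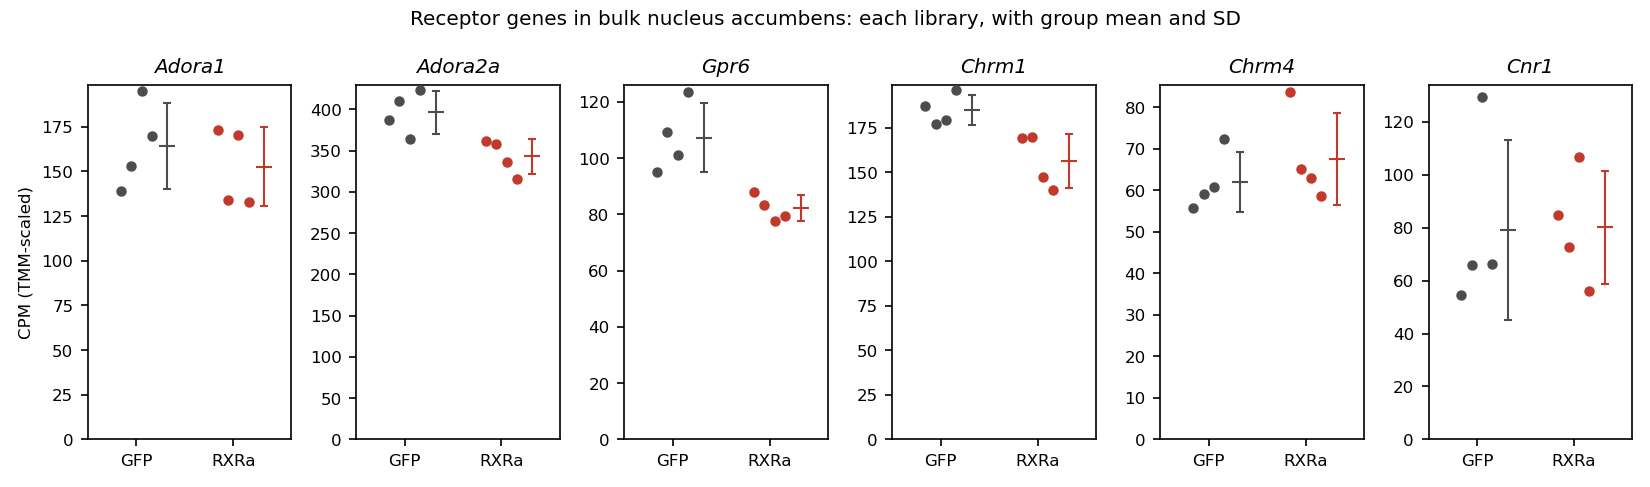
Level of each receptor gene in the 8 bulk libraries (vertical axis, TMM-scaled CPM from 0, a scale of its own in each panel) by vector (horizontal axis; GFP grey, RXRa red), with group mean and SD. The RXRa libraries lie below the GFP libraries without overlap for Adora2a, Gpr6 and Chrm1, and overlap for Adora1, Chrm4 and Cnr1. Only Gpr6 was called, and the share of all genes without overlap was not counted.

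Genes around the receptors were read from 5 lists: other members of the families (10 genes), adenosine supply and removal (10), acetylcholine handling (6), endocannabinoid synthesis and breakdown (11) and G protein coupling (20). Under EGFP, 1 of these 57 genes was called between D2 and D1: Nt5e, the ecto-enzyme that makes adenosine from AMP, was higher in D2, at 37.3 to 46.7 CPM against 30.3 to 37.2 in D1 (0.32, SE 0.07, adjusted p = 0.0313). Its background is high, with a median of 23.0 CPM in D1 and 23.9 in D2. Under RXRa, 8 of the 57 were called higher in D2 than in D1 and 0 lower, beside 6.85% and 1.51% of all genes. Over all genes 3671 were called there, and 34 with the RXRa libraries fitted alone. The 8 included Nt5e (0.48, SE 0.07, adjusted p = 2.42e-04) and Adk, adenosine kinase (0.32, SE 0.05, adjusted p = 9.64e-04). The endocannabinoid genes Gde1 (0.42) and Abhd12 (0.29) and the coupling genes Gnas (0.62), Gnb5 (0.65) and Gnb1 (0.32) were among them as well.

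With RXRa in D2 nuclei, 18 of the 20 coupling genes were called higher, with 0 lower and a list median of 0.38 against -0.04 over all genes. The 4 with the smallest p were Gng7, a G protein gamma subunit abundant in striatum (0.65, SE 0.14, adjusted p = 0.0111), Arrb1, beta-arrestin 1 (0.37), Gnb1, a beta subunit (0.37), and Gna11, a Gq-class alpha subunit (0.50). The share over all genes in this comparison was 14.9%. No gene of the whole table, and so none of the list genes named here for D2 nuclei, was called by edgeR with silent-gene density as a covariate or without replicate 4 of the D2 RXRa females. Of the 11 endocannabinoid genes 4 were called higher: Abhd12 (0.35) and Mgll (0.28), which break down 2-arachidonoylglycerol, Gde1 (0.40), and Dagla (0.24), which makes 2-arachidonoylglycerol. Nt5e (0.23) and the acetylcholine-degrading enzyme Ache (0.68, SE 0.14, adjusted p = 0.0111) were the single genes called in their lists. Among the families Gpr12 was called higher (0.70, SE 0.22, adjusted p = 0.0224) and Adora3 lower (-0.24, SE 0.07, adjusted p = 0.0151). Adora3 lay below its length-matched background in all groups, at 9.11 to 14.8 CPM in D2 nuclei. In D1 nuclei edgeR called 0 of the 57 genes with RXRa. Of the 57, 9 had an unadjusted p under 0.05, beside 3518 of all 43902 genes. Positive estimates were found for 20 of 20 coupling genes, with a median of 0.18 against -0.014 over all genes.

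Cholinergic interneurons release the acetylcholine that muscarinic receptors bind. In sorted nuclei their marker Chat was 29.3 to 44.8 CPM against background medians of 26.5 to 30.7. Slc18a3 was below its background, at 0.215 to 0.837 CPM against medians of 1.11 to 1.28. The other markers on that list lay on both sides of their background medians. Slc5a7 was 11.3 to 22.8 CPM against 11.68 to 13.53, and Lhx8 10.56 to 16.72 against 11.19 to 12.96. Tbx2 was 2.455 to 5.592 CPM against 4.315 to 4.999. In bulk tissue, 2 of the 56 list genes tested were called with RXRa, 1 higher and 1 lower, a share near the 3.01% and 0.689% of all genes. Over all genes, 687 were called, and 9 without replicate 4 of the GFP libraries. Slc28a2, a sodium-coupled nucleoside transporter, rose from 1.04 to 2.28 CPM to 3.79 to 6.47 CPM (1.69, SE 0.26, adjusted p = 0.0133), beside the T and NK cell markers above. Gnai1, a Gi alpha subunit, fell by 0.30 (SE 0.05, adjusted p = 0.0132), from 198 to 211 CPM to 159 to 171 CPM. The coupling list had 14 of 20 negative estimates in bulk, with a median of -0.09 against -0.02 over all genes.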

How the data were processed

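Counts per gene were deposited as whole numbers by the authors in 1 table of 8 bulk and 1 of 36 sorted libraries. Bulk libraries were poly(A)-selected and sorted libraries ribosomal-RNA-depleted total RNA, per the labels' protocols. FastQC, Trimmomatic, HISAT2, Picard and featureCounts from Subread, and the build GRCm38, are listed per the submitters' processing notes, and use of strand and intron reads is not given in the sources used here. No normalization had been applied to the deposited counts. Of 55487 identifiers, 55394 matched GENCODE M21.

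Counts were fitted with edgeR 4.0.16 (R 4.3.3): filterByExpr by group, TMM scaling and the quasi-likelihood test, with bulk in 2 groups and 35 sorted libraries in 8 groups that share the spread. Sexes were weighted equally. The 12 comparisons were adjusted over all genes (Benjamini-Hochberg, called under 0.05). Intervals are 1.96 SE. One sorted library whose title and vector label disagree entered no comparison. Levels are CPM on TMM-scaled library sizes, in which 3 counts are the floor for a count of 0, and counting error excludes PCR duplication. Replicate pairs differed by a chi-square per degree of freedom of 1.79 to 63.6 over 72 pairs, so none was merged. Ratios to Chrm1 were chosen after seeing the data and tested with SciPy 1.17.1. Alternatives used DESeq2 1.42.0 and limma 3.58.1 (voom). The procedure was tested on simulated data. Named genes are the members, up to 4 genes of each list per comparison (smallest p among those called, otherwise the smallest p) and the 3 closest genes of each member. The members, lists and settings were chosen with earlier results of these data known. One gene of the lists is not reported here by name or value.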

Additional observations from a re-analysis of the deposited data

Results flagged for a closer look

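Among 60 combinations of a receptor gene and a group, 4 held a library that stood apart from the rest of its group by Dixon's ratio at the 95% level, where chance gives about 1 in 20. Replicate 1 of the D1 RXRa females was highest for Chrm1 (62.3 CPM) and for Chrm4 (15.5 CPM), and it also had the lowest silent-gene density of the sorted libraries, 0.380. Replicate 1 of the D2 RXRa males was lowest for Chrm4, at 1.51 CPM. Replicate 3 of the bulk GFP libraries was highest for Cnr1, at 130 CPM.

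The sorted library left out of all comparisons held 2941 counts of the vector RXRa sequence. Sorted EGFP libraries held at most 17 such counts and sorted RXRa libraries at least 1216.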

How the results depend on the processing

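Adora2a and Gpr6 kept their D2 minus D1 calls under EGFP, both sexes, in all 30 alternative fits, with estimates of 1.67 to 1.903 and 2.11 to 2.48. With RXRa in D2 nuclei, of which 5 members were called, the number was 0 with silent-gene density as a covariate (on either scaling), 1 with library totals or only the groups compared, 3 with limma voom or the replicate block, and 0 to 5 leaving out 1 library. Over all genes 9683 were called, 6548 of them higher, against 2547 with only the groups compared, 0 with the density, 0 to 14766 leaving out 1 library, and 11391 with library totals, of which 2057 were higher. For D2 minus D1 under RXRa the number of members was 4, and 2 with library totals, limma voom, only the groups compared or the replicate block, and 2 to 4 leaving out 1 library. All genes called there numbered 3671, against 1114 with library totals, 864 with voom, 34 with only the groups compared, 236 with the replicate block, 1286 with the density on library totals and 118 to 9886 leaving out 1 library. For D2 minus D1 under EGFP, 53 genes were called, and 134 with only the groups compared and 203 with the density on library totals. In males 2 members were called, 1 with limma voom or a robust fit, and 1 to 2 leaving out 1 library, as in females. The D2 female and D2 male RXRa comparisons gave 0 members, and 0 to 2 and 0 to 5 leaving out 1 library. In bulk 1 member was called, 0 with the replicate block and 0 to 1 leaving out 1 library. There 687 genes were called, against 1596 with DESeq2, 0 with the block and 9 to 1016 leaving out 1 library.

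The shared replicate numbers did not pair the libraries: correlations of same-numbered deviations ran from -0.69 to 0.58. The block lowered the count of members called in the 3 comparisons named with it and in no other.

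Directions turned only among differences that were not called, except for Chrm1 with RXRa in D2 nuclei (-0.015 with the density on library totals). With silent-gene density as a covariate, Adora1 turned to -0.081, Chrm1 to -0.14 and Chrm4 to -0.036 in D1 females, Adora1 to -0.12, Chrm1 to -0.093 and Cnr1 to -0.10 in D1, Chrm1 to -0.048 in D1 males, Cnr1 to -0.053 in D2 females, -0.26 in D2 males and -0.16 in D2, Cnr1 to -0.059 in the interaction, and Adora1 to 0.064 and Cnr1 to 0.018 in D2 minus D1 females. With the density on library totals, the values were -0.076, -0.19 and -0.059 for Adora1, Chrm1 and Chrm4 in D1 females, -0.12, -0.14, -0.0037 and -0.16 for Adora1, Chrm1, Chrm4 and Cnr1 in D1, -0.0093 and -0.088 for Adora2a and Chrm1 in D1 males, -0.036, -0.27 and -0.011 for Chrm1, Cnr1 and Gpr6 in D2 females, -0.011 and -0.43 for Adora1 and Cnr1 in D2 males, -0.35 for Cnr1 in D2, -0.037 for Cnr1 in D2 minus D1 under RXRa, 0.018 for Adora1 in D2 minus D1 females, and -0.19 and -0.13 for Cnr1 and Gpr6 in the interaction. With library totals they were -0.061 and -0.023 for Adora1 and Cnr1 in D1, -0.13 and -0.054 for Cnr1 in D2 males and D2, and -0.032 for Cnr1 in the interaction. The replicate block gave 0.0077 and 0.0067 for Adora1 and Cnr1 in D2 minus D1 females, and voom 0.013 for Cnr1 in D1 females. The cause was not tested.

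Leaving out 1 library, the ranges that crossed 0 were -0.023 to 0.057 for Adora1 and -1.85e-04 to 0.14 for Cnr1 in D1, -0.12 to 0.16 for Cnr1 in D1 females, -0.018 to 0.26 for Adora2a and -0.11 to 0.16 for Chrm1 in D1 males, -0.19 to 0.27 for Cnr1 in D2 males, -0.030 to 0.16 for Cnr1 in D2 minus D1, -0.068 to 0.062, -0.060 to 0.28 and -0.26 to 0.11 for Adora1, Chrm1 and Cnr1 in D2 minus D1 females, -0.027 to 0.23 and -0.011 to 0.47 for Cnr1 and Gpr6 in the interaction, and -0.15 to 0.36 for Cnr1 in bulk.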

Other observations

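The sorted library that entered no comparison, because its title and its vector label name different vectors, is a D2 female library by its labels. It had 39.6 CPM of Adora1, 62.8 of Adora2a, 19.9 of Gpr6, 56.2 of Chrm1, 4.90 of Chrm4 and 27.9 of Cnr1.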
